A study of Mus musculus with 21 samples.

Results

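The 7 genes described here encode Notch receptors (Notch1, Notch2 and Notch3), Delta-like ligands (Dll1 and Dll3) and Jagged ligands (Jag1 and Jag2) of the mouse. They were taken by name and make up 7 of the 18193 genes that had a probe set with a single gene symbol on the array. Each gene was represented by the probe set with the highest mean log2 signal. All 7 members passed the filter on low values, as did 12141 of the 18193 genes.

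Notch receptors and their ligands are membrane proteins of neighbouring cells. Binding of a ligand leads to cleavage of the receptor, whose intracellular part enters the nucleus and, with the DNA-binding protein Rbpj, activates target genes of the Hes and Hey families. In the presomitic mesoderm (PSM), the unsegmented tissue from which somites bud off in sequence, this signalling takes part in the oscillations of the segmentation clock and in placing somite boundaries.

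The series profiled PSM of CD-1 mice, an outbred strain, cut into 7 consecutive parts with 3 replicate arrays per part, 21 arrays in all. The labels name no mutation and no treatment beyond a brief pancreatin digestion during dissection. They are labelled as stage E8.5, and the dissection protocol gives 9.0 days post coitus. The labels speak of the span between tail bud and somite and do not number its ends. By the design text, both sides of 1 embryo were used beside tissue of another. Arrays from the same embryo are not independent, and p-values that treat them as such understate the uncertainty between embryos.

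The values are linear MAS5 signal intensities, a per-probe-set summary used for Affymetrix arrays, and were tested as log2(signal + 16). A gene is called here when limma gave a Benjamini-Hochberg adjusted p below 0.05 over all 12141 genes. The mean signal of an array lay between 151 and 154. As a check of direction, the presomitic gene Tbx6 had a slope of -0.69 ± 0.08 log2 units per part (SE, 21 arrays), and the somite gene Meox1 a slope of 1.16 ± 0.11. All 7 somite markers rose. Of 8 presomitic markers 5 fell, Aldh1a2 and Ripply2 rose, and Mesp2 was not called. By the somite markers part 7 was the more somite-like end, though the labels do not state the order.

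Several arrays resembled a neighbouring part more than their own. Across genes, each centred on its mean over the arrays, part 7 replicate 2 correlated with the mean of part 6 at r = 0.705 and with the mean of the other part 7 arrays at r = 0.388. Of the 21 arrays, 8 were most like their own part and the other 13 most like a neighbouring part. The correlation with the own part was lowest for part 4 replicate 3 (r = -0.029, against 0.174 with part 5), part 3 replicate 3 (0.038, against 0.297 with part 2) and part 2 replicate 3 (0.063, against 0.439 with part 3). Leaving out any of these 3 changed no call of a member except that of Dll1 from part 5 to 6, given there. Leaving out part 7 replicate 2 changed several. The called differences of part 7 from part 1, and Notch1 and Dll3 from part 6 to 7, are therefore given with and without it. As the array was singled out from these data, the values without it are descriptions.

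The promoters of the 4 members with a called slope along the part numbers are shown because they are the DNA next to the starts of the genes on which the results below turn. The sequences are RefSeq's for the 250 bases upstream of the annotated start, on the gene's own strand, in mouse build GRCm38.p6. Capitals mark matches to the N-box, CACNAG, a motif bound by some Hes proteins, on either strand.
Notch1, chr2:26503823-26504072, minus strand: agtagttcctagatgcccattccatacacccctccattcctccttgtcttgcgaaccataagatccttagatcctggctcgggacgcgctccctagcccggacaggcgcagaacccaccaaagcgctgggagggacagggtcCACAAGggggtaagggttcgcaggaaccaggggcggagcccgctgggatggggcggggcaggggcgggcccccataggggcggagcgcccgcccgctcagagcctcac
Notch2, chr3:98013288-98013537, plus strand: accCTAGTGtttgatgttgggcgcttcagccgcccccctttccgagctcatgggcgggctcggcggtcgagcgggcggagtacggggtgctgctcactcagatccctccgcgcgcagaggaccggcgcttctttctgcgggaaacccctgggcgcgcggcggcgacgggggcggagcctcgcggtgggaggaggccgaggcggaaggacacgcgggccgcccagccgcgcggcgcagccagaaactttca
Dll1, chr17:15376933-15377182, minus strand: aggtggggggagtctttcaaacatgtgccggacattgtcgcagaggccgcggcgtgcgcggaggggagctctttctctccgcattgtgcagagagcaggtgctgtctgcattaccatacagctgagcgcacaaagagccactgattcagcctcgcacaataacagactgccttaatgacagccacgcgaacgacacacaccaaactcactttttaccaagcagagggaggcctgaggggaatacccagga
Dll3, chr7:28301786-28302035, minus strand: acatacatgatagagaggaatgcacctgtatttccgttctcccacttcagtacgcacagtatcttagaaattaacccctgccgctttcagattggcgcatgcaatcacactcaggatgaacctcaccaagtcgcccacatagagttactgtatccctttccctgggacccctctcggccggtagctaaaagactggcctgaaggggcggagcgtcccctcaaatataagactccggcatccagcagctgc

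All 7 members had a promoter entry, and Dll1 had 2 annotated starts, of which the most upstream was used. Within the 250 bases the dinucleotide CG occurred 16 times before Notch1, 34 times before Notch2, 13 times before Dll1 and 10 times before Dll3, against a median of 6 over all 32851 promoters. Both of these receptor promoters thus held more CG than both Delta-like promoters, and all 4 held more than the median promoter. The windows of Notch3, Jag1 and Jag2 held 17, 20 and 54. Both Jagged promoters thus held more CG than that of Notch1, and the contrast does not extend to all receptors and ligands. GC content was 66% for Notch1, 72% for Notch2, 56% for Dll1 and 52% for Dll3, with a median of 52.4% over all promoters. Both strands were searched for 4 motifs: the Rbpj core TGGGAA, found in 21.6% of all promoters, the T-box core AGGTGT, in 11.8%, the E-box CACGTG, in 6.02%, and the N-box CACNAG, in 36.7%. The N-box was the only one of the 4 with a match in a member's window. It lay 108 to 103 bases upstream of Notch1, 247 to 242 bases upstream of Notch2 on the opposite strand, and at 204 to 199 and 159 to 154 bases upstream of Notch3. The windows of Dll1, Dll3, Jag1 and Jag2 held none of the 4 motifs. A match describes letters only and shows no binding.

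Along the part numbers, the receptors Notch1 and Notch2 rose and the ligands Dll1 and Dll3 fell, while Notch3, Jag1 and Jag2 had no called slope. Thus 2 of 7 members rose, where 8.12% of all genes tested rose, and 2 of 7 fell, where 11.1% of all genes fell. The median slope of the 7 members was 0.00 log2 units per part, as it was over all genes tested. The test that asks for any difference between the 7 parts called 5 of 7 members, Jag1 in addition, against 13.4% of all genes. Part 7 was higher than part 1 for Notch1 and Notch2, where 6.1% of all genes were higher, and lower for Dll1 and Dll3, where 7.29% were lower. In whole-tissue RNA, fewer cells expressing a gene and less RNA per cell cannot be told apart.

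**Figure D1:**
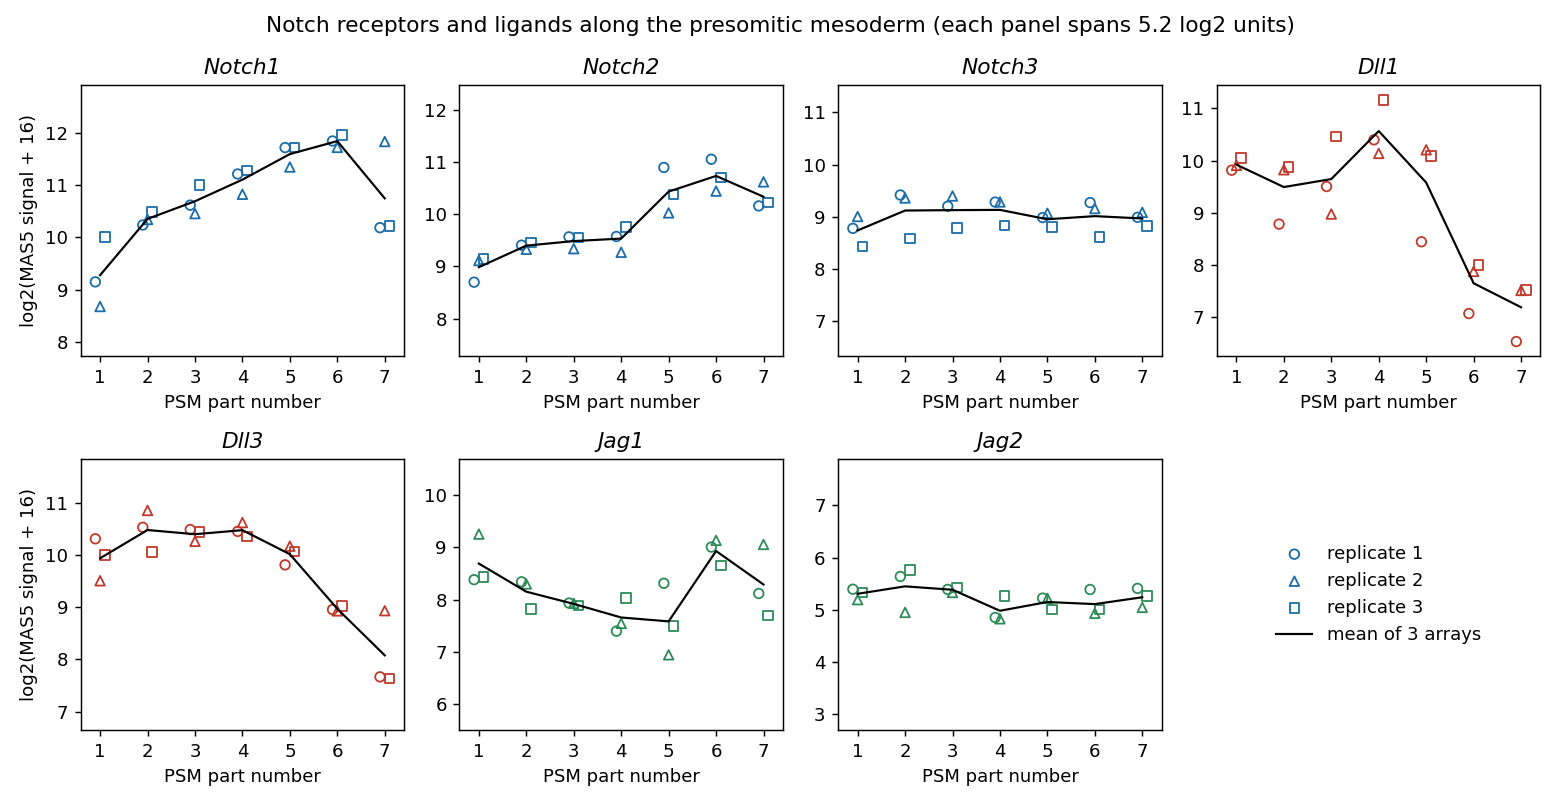
Signal of each member as log2(MAS5 signal + 16) against PSM part number; symbols are the 3 replicate arrays and the line joins the part means. Notch1 and Notch2 climb to part 6, Dll1 and Dll3 drop after part 5, Jag1 is lowest in parts 4 and 5, and Notch1 and Dll3 of part 7 replicate 2 lie near the part 6 values.

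Notch1 is a receptor known to be needed for orderly somite formation in the mouse. Its signal in replicates 1, 2 and 3 was 552, 394 and 1012 in part 1, 1193, 1284 and 1417 in part 2, and 1557, 1390 and 2040 in part 3. It was 2363, 1801 and 2471 in part 4, 3361, 2594 and 3359 in part 5, 3670, 3369 and 3981 in part 6, and 1151, 3643 and 1178 in part 7. Every array of parts 5 and 6 exceeded every array of parts 1 to 4, and part 7 split, with replicate 2 at the part 6 level and the others between the levels of part 1 and part 2. The mean was 653 ± 321 (SD, n = 3) in part 1 and 3673 ± 306 in part 6. From highest to lowest mean log2 signal the order was part 6, 5, 4, 7, 3, 2 and 1. Arrays of neighbours in that order overlapped between parts 4 and 7, 7 and 3, and 3 and 2, and did not overlap at the other 3 of the 6 steps.

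The slope of Notch1 was 0.30 ± 0.07 log2 units per part (SE; limma, adjusted p = 0.00232). It was positive in each replicate number, at 0.27, 0.47 and 0.15. The call was lost when replicate 2 was left out of all parts (0.21, limma, adjusted p = 0.122). Part 7 was 2.77-fold higher than part 1 (log2 difference 1.47 ± 0.33, SE; adjusted p = 0.00518), and 1.90-fold higher without part 7 replicate 2 (adjusted p = 0.0234). That call was lost without replicate 1 (adjusted p = 0.0728), without replicate 2 (log2 difference 0.63, adjusted p = 0.135) and when only the 2 parts entered the fit (adjusted p = 0.0723). The F test over the parts gave an adjusted p of 0.000239, which rose to 0.094 without replicate 1.

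Notch2 is a second receptor of the family. Its signal was 400, 538 and 551 in part 1, 663, 627 and 688 in part 2, 743, 632 and 734 in part 3, and 746, 602 and 849 in part 4. It was 1889, 1027 and 1317 in part 5, 2109, 1377 and 1652 in part 6, and 1128, 1558 and 1182 in part 7. The arrays formed a low set, parts 1 to 4, and a high set, parts 5 to 7, with no overlap between them. Within the low set, part 1 lay below part 2 with no overlap. The other neighbours in the order part 6, 5, 7, 4, 3, 2 and 1 overlapped.

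Notch2 had a slope of 0.27 ± 0.03 log2 units per part (SE; limma, adjusted p = 3.17e-06), with 0.32, 0.27 and 0.23 in the 3 replicate numbers. Part 7 was 2.55-fold higher than part 1 (log2 difference 1.35 ± 0.20, SE; adjusted p = 8.54e-05) and 2.31-fold higher without part 7 replicate 2 (adjusted p = 0.000895). The slope was called under all 36 alternatives tried. The F test gave an adjusted p of 9.13e-06.

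Notch3, a receptor best known from vascular smooth muscle, showed little change. Its signal was lowest at 330 in part 1 replicate 3 and highest at 669 in part 2 replicate 1, with a median of 498 over the 21 arrays. Part means lay between 417 ± 84 (SD, n = 3) in part 1 and 559 ± 167 in part 2, and arrays of all neighbours in the order of the means overlapped. Replicate 3 was the lowest of the 3 arrays in every part. The slope was 0.01 ± 0.03 (SE; limma, adjusted p = 0.854) and its sign differed between replicate numbers, at 0.00, -0.02 and 0.05. Neither the F test (adjusted p = 0.82) nor part 7 against part 1 (log2 difference 0.23 ± 0.22, adjusted p = 0.562) passed.

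Dll1 is a ligand that activates Notch in neighbouring cells and is required for somite borders in the mouse. Its signal was 885, 945 and 1040 in part 1, 425, 890 and 921 in part 2, and 710, 488 and 1391 in part 3. It was 1333, 1110 and 2276 in part 4, 333, 1166 and 1071 in part 5, 118, 219 and 241 in part 6, and 77, 167 and 168 in part 7. Every array of parts 6 and 7 lay below every array of parts 1 to 5. All 3 arrays of part 4 exceeded those of part 1, which came next in the order part 4, 1, 3, 5, 2, 6 and 7. Parts 1, 3, 5 and 2 overlapped in turn, part 2 and part 6 did not, and part 6 and part 7 did. Replicate 1 was the lowest of the 3 arrays in parts 5, 6 and 7.

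Dll1 had a slope of -0.43 ± 0.10 log2 units per part (SE; limma, adjusted p = 0.00218), with -0.51, -0.35 and -0.42 in the 3 replicate numbers. It was 6.64-fold lower in part 7 than in part 1 (log2 difference -2.73 ± 0.45, SE; adjusted p = 0.000286), and 7.43-fold lower without part 7 replicate 2 (adjusted p = 0.000803). The highest part in each replicate number was part 4, 5 and 4, so the decrease was not a straight line. The F test gave an adjusted p of 8.62e-05.

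Dll3 is a divergent Delta-like protein that does not activate Notch in the receiving cell, and its loss in the mouse disturbs vertebral segmentation. Its signal was 1252, 710 and 1003 in part 1, 1460, 1830 and 1044 in part 2, and 1417, 1210 and 1375 in part 3. It was 1383, 1556 and 1291 in part 4, 881, 1133 and 1054 in part 5, 480, 471 and 504 in part 6, and 187, 472 and 183 in part 7. As for Dll1, every array of parts 6 and 7 lay below every array of the other parts. In part 7, replicate 2 was at the level of part 6 and the others were below it. In the order part 2, 4, 3, 5, 1, 6 and 7, arrays did not overlap between parts 3 and 5 or between parts 1 and 6.

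The slope of Dll3 was -0.32 ± 0.06 log2 units per part (SE; limma, adjusted p = 0.000826), with -0.42, -0.20 and -0.34 in the 3 replicate numbers. Part 7 was 3.63-fold lower than part 1 (log2 difference -1.86 ± 0.27, SE; adjusted p = 6.81e-05) and 4.88-fold lower without part 7 replicate 2 (adjusted p = 4.42e-07). The F test gave an adjusted p of 5.49e-06. The slopes of Dll1 and Dll3 were called under all 36 alternatives tried.

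Jag1 is a Jagged ligand expressed in many tissues. Its signal was 318, 595 and 330 in part 1, 308, 299 and 209 in part 2, 229, 228 and 221 in part 3, and 152, 171 and 246 in part 4. It was 302, 107 and 164 in part 5, 498, 546 and 386 in part 6, and 262, 516 and 191 in part 7. Every array of part 6 exceeded every array of parts 2 to 5. Part 1 also lay above parts 2 to 5 in all its arrays, while part 7 was spread over the range of the others. All neighbours in the order part 6, 1, 7, 2, 3, 4 and 5 overlapped.

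Jag1 had a slope of 0.00 ± 0.06 log2 units per part (SE; limma, adjusted p = 0.996). The F test passed with an adjusted p of 0.0377, and remained below the threshold in 20 of 36 alternatives, over a range of 0.00247 to 0.302. It was 0.205, 0.302 and 0.0552 without replicates 1, 2 and 3. The F test also missed the threshold with no filter on low values (adjusted p = 0.0575), with median centring (0.0579) and with the mean of its probe sets (0.132). Part 7 against part 1 did not pass (log2 difference -0.40 ± 0.33, SE; adjusted p = 0.479), nor did it without part 7 replicate 2 (-0.78 ± 0.32, adjusted p = 0.127).

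Jag2, the other Jagged ligand, was near the bottom of the measured range. Its signal lay between 12.4 and 38.2 with a median of 22.4 over the 21 arrays, close to the filter value of 13.3, which 19 of 21 arrays reached. Part means lay between 16 ± 6 (SD, n = 3) in part 4 and 29 ± 12 in part 2, and all neighbours in their order overlapped. The slope was -0.04 ± 0.03 (SE; limma, adjusted p = 0.337), the F test gave an adjusted p of 0.552, and part 7 differed from part 1 by -0.07 ± 0.19 log2 units (adjusted p = 0.87). At such signals log2(signal + 16) compresses differences, so a change of Jag2 may not be detectable on these arrays.

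The middle of the tissue, parts 3 to 5, was set against parts 1, 2, 6 and 7. Dll1 and Dll3 were higher in the middle and Jag1 was lower. Thus 2 of 7 members were higher, where 1.32% of all genes tested were, and 1 of 7 was lower, where 1.58% were. Dll1 was 2.58-fold higher (log2 difference 1.37 ± 0.24, SE; limma, adjusted p = 0.00244) and Dll3 1.91-fold higher (0.93 ± 0.14, adjusted p = 0.000671). These differences came mostly from low values in parts 6 and 7. Mean log2 signals of Dll1 were 9.92 and 9.49 in parts 1 and 2, and 9.65, 10.57 and 9.58 in parts 3 to 5. They were 7.65 and 7.19 in parts 6 and 7. For Dll3 they were 9.94 and 10.48, then 10.40, 10.47 and 10.01, then 8.97 and 8.08. Jag1 was 1.74-fold lower (-0.80 ± 0.18, adjusted p = 0.0164). Notch1 was 1.49-fold higher without passing (0.58 ± 0.18, adjusted p = 0.107), and without part 7 replicate 2 it passed at 1.64-fold (adjusted p = 0.00268), as it did without part 1 replicate 3 (adjusted p = 0.0347) or replicate 2 of all parts (adjusted p = 0.00973). Part 7 replicate 2 was singled out from these data, and its Notch1 signal was 3643 against 1151 and 1178 in the other part 7 arrays. Leaving it out favours this difference, so the Notch1 values without it are descriptions. The Jag1 call was lost without replicate 1 (adjusted p = 0.115), without replicate 2 (adjusted p = 0.302) and with the mean of all its probe sets (adjusted p = 0.0727). The Dll3 call was lost without replicate 1 (adjusted p = 0.0509).

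**Figure D2:**
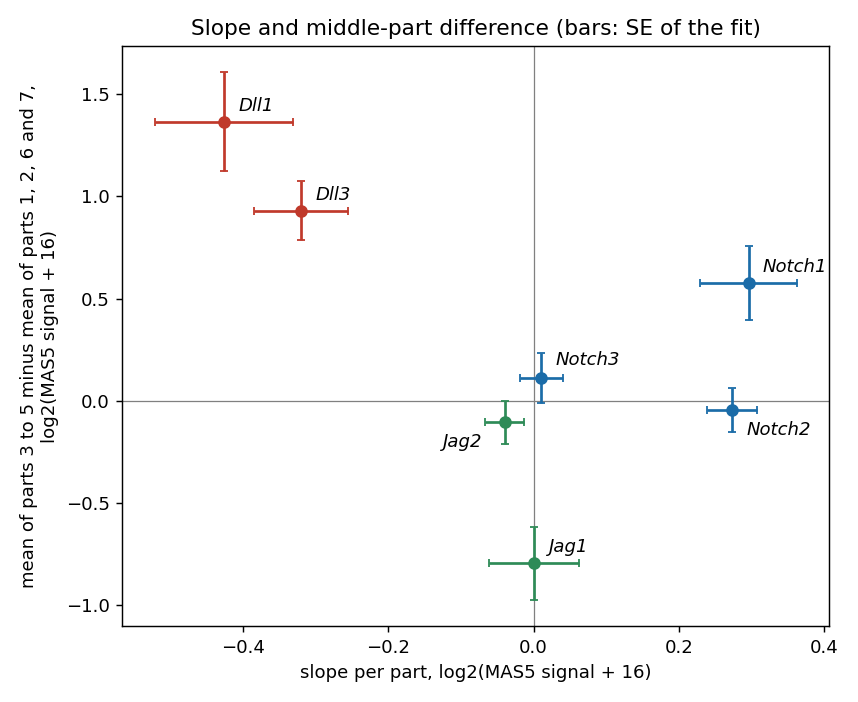
Slope per part (x axis) and difference of parts 3 to 5 from parts 1, 2, 6 and 7 (y axis), both in log2(MAS5 signal + 16), for the 7 members; bars are the SE of the limma fits over 21 arrays. Dll1 and Dll3 share a negative slope and a positive middle difference, Notch1 and Notch2 share a positive slope, and Jag1 has a slope of 0.00 with a negative middle difference.

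Between neighbouring parts, the main limma fit, which had no replicate block, called none of the 7 members at any of the 6 steps. Few genes of any kind were called at single steps: 0.799% from part 1 to 2, 0.00824% from 2 to 3, 0.0494% from 3 to 4, 0.321% from 4 to 5, 0.486% from 5 to 6 and 0% from 6 to 7. At an unadjusted p below 0.05 there were 1 member and 1393 of 12141 genes from part 1 to 2, no member and 403 genes from part 2 to 3, and no member and 643 genes from part 3 to 4. There were 2 members and 631 genes from part 4 to 5, 3 members and 865 genes from part 5 to 6, and 2 members and 581 genes from part 6 to 7. The 3 members from part 5 to 6 were Dll1, Dll3 and Jag1. There Dll1 was 3.81-fold lower in part 6 than in part 5 (log2 difference -1.93 ± 0.45, SE; adjusted p = 0.0682), Dll3 was 2.06-fold lower (-1.05 ± 0.27, adjusted p = 0.113) and Jag1 was 2.54-fold higher (1.35 ± 0.33, adjusted p = 0.0992). From part 4 to part 5, Notch2 was 1.87-fold higher (0.90 ± 0.20, adjusted p = 0.0613). From part 1 to part 2, Notch1 was 2.11-fold higher (1.08 ± 0.33, adjusted p = 0.159).

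The calls at single steps depended on how the replicate numbers were treated. From part 4 to 5 and from part 5 to 6, same-numbered arrays deviated together from their part means, at r = 0.20 to 0.57 and 0.29 to 0.57 across genes. With the replicate number as a block, limma called Notch2 from part 4 to 5 (adjusted p = 0.0155), where 0.865% of all genes were then called. It also called Dll1 (adjusted p = 0.00125), Dll3 (0.0412) and Jag1 (0.0326) from part 5 to 6, where 1.17% were. The block called no member at the other 4 steps. Array weights without a block called the same members at the same steps, so the calls did not depend on the block alone.

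Single arrays decided some of these calls as well. Without part 5 replicate 1, Dll1 was 5.64-fold lower (limma, adjusted p = 0.0101) and Jag1 3.28-fold higher (adjusted p = 0.0222) in part 6 than in part 5, and Notch2 was 1.59-fold higher in part 5 than in part 4 (adjusted p = 0.512). Dll1 also passed from part 5 to 6 without part 3 replicate 3 (adjusted p = 0.0437). Notch2 passed from part 4 to 5 without part 5 replicate 2 (adjusted p = 0.0127) or part 6 replicate 1 (adjusted p = 0.0492).

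The last step turned on part 7 replicate 2. With it, Notch1 was 2.14-fold lower in part 7 than in part 6 (log2 difference -1.10 ± 0.33, SE; limma, adjusted p = 0.728) and Dll3 1.86-fold lower (-0.89 ± 0.27, adjusted p = 0.728). Without it, Notch1 was 3.12-fold lower and Dll3 2.49-fold lower, both with a limma adjusted p of 0.00477. At that step 62 genes, or 0.511% of those tested, were then called. The array was singled out for its likeness to part 6, so leaving it out favours a difference between parts 6 and 7. The values without it at this step are therefore descriptions and no test of it. Leaving out this array also brought 4 other differences past the threshold: Notch1 from part 1 to 2 (adjusted p = 0.0307), Notch2 from part 4 to 5 (0.0417), and Dll3 (0.00819) and Jag1 (0.0357) from part 5 to 6. The estimates of those 4 stayed as they were, since the array belongs to neither part of these steps and entered them through the estimate of the spread. Those 4 calls too are descriptions, because the array was singled out from these data. The position of this array between part 6 and part 7 was not tested further.

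**Figure D3:**
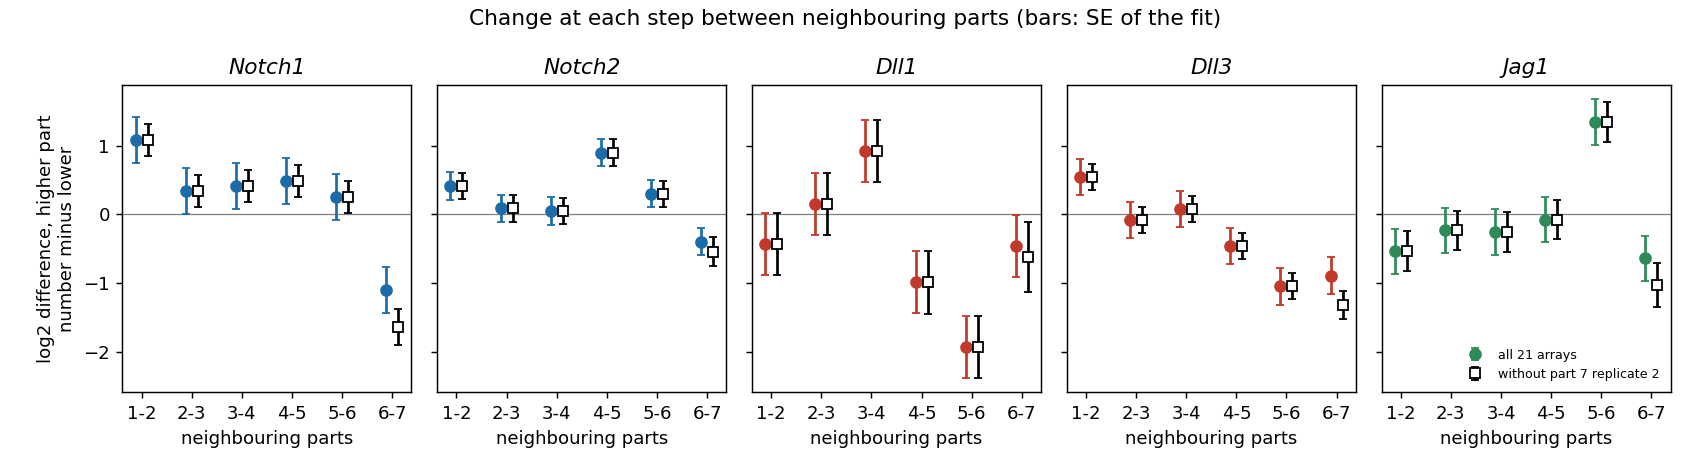
Log2 difference between neighbouring parts, higher part number minus lower, for 5 members; filled circles use all 21 arrays, open squares leave out part 7 replicate 2, and bars are the SE of the limma fit. Notch2 has its largest rise from part 4 to 5, Dll1 its largest fall and Jag1 its largest rise from part 5 to 6. The largest fall of Dll3 is from part 5 to 6 with all arrays and from part 6 to 7 without part 7 replicate 2.

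Members of each family were compared in 5 pairs by the slope of their within-array difference, which leaves out the level of each probe set. The receptors Notch1 and Notch2 each rose relative to Notch3. The slope of Notch1 minus Notch3 was 0.29 log2 units per part (95% interval 0.12 to 0.45; permutation p = 0.00213, 0.00532 adjusted over the 5 pairs), and that of Notch2 minus Notch3 was 0.26 (0.15 to 0.37; permutation p = 0.00011, adjusted p = 0.00055). Both differences were positive in 3 of 3 replicate numbers. The Notch1-Notch3 call was lost without replicate 2 (0.19, permutation, adjusted p = 0.255).

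No slope difference was detected within the other pairs. Their intervals give the slope differences that remain possible when arrays are taken as independent. A straight line misses differences of shape, such as that of the middle parts from the ends, -0.80 log2 units for Jag1 and -0.10 for Jag2. Notch1 minus Notch2 had a slope of 0.02 (95% interval -0.11 to 0.15; permutation p = 0.718, adjusted p = 0.718). Dll1 minus Dll3 had a slope of -0.11 (-0.27 to 0.06; permutation p = 0.197, adjusted p = 0.328), negative in 3 of 3 replicate numbers. Jag1 minus Jag2 had a slope of 0.04 (-0.11 to 0.19; permutation p = 0.585, adjusted p = 0.718).

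The array carried 13 probe sets for the 7 members, 1 each for Dll1 and Dll3 and 2 or 3 for the others. In this paragraph each probe set was tested alone, and p-values were adjusted over 22064 probe sets instead of over genes. The second Notch1 probe set, with a mean signal of 123, also rose (0.19 ± 0.06 log2 units per part, SE; limma, adjusted p = 0.0186). The second Notch3 probe set, with a mean signal of 80.2, had a slope of 0.00 (adjusted p = 0.967). The second Notch2 probe set, with a mean of 7.70, and the other Jag1 probe sets, with means of 8.22 and 9.88, lay below the filter value in most arrays and had no called slope. The second Jag2 probe set, with a mean signal of 12.5, reached the filter value in 9 of 21 arrays. Its slope of -0.14 ± 0.05 was just inside the threshold (adjusted p = 0.04996) and had the same sign as that of the probe set used, and the difference between them was not tested.

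Over the 21 arrays, Dll1 and Dll3 correlated at r = 0.826, and Notch1 and Notch2 at r = 0.794, as log2 signals. These are descriptions, since arrays of neighbouring parts and of shared embryos are not independent. The genes whose pattern was most like Notch1 were Synm (r = 0.917), Tmem222 (0.890) and Foxc2 (0.873), a forkhead gene of the paraxial mesoderm. Most like Notch2 were Shroom3 (0.950), which acts in apical constriction of epithelia, the FGF receptor gene Fgfr2 (0.948) and Myocd (0.944), a cofactor of smooth and cardiac muscle genes. Most like Dll3 were Pcolce2 (0.935), Tbx6 (0.930), a T-box factor of the PSM, and 2610528A11Rik (0.916).

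For Dll1 the most alike were Ice1 (r = 0.911), Etl4 (0.908) and Dsc2 (0.901), a desmosomal cadherin gene. For Notch3 they were Klhl17 (0.918), Tyro3 (0.906) and Cdk16 (0.894), and none of these had a slope above 0.02. The most alike genes of Jag1 reached only 0.784 (Mirg), 0.730 (Srf) and 0.723 (Prdm11), and those of Jag2 0.825 (Laptm5), 0.818 (Myo18a) and 0.804 (Cmpk2).

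The rest of the pathway was followed through 7 lists of 49 genes, of which 46 were on the array and 44 passed the filter. Of these 44, 6 rose, 4 fell and 34 did not pass, where 8.12% of all genes rose and 11.1% fell. The count was 4 up and 2 down without replicate 2, 8 and 6 without part 7 replicate 1, and 7 and 7 with the replicate block. The slope then called 12%, 17.7% and 25.1% of all genes, against 19.2% in the main fit. The median slope of the 44 genes in the main fit was 0.01 log2 units per part, against 0.00 over all genes tested. The genes below are given by their step in the pathway.

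Among 5 other receptors and ligands, 2 rose and 1 fell. Notch4, the receptor best known from blood vessels, fell by 0.45 ± 0.04 log2 units per part (SE; limma, adjusted p = 6.03e-08), with signals between 22.6 and 365. The non-canonical ligands Dner (0.31 ± 0.05, adjusted p = 3.36e-05) and Dlk1 (0.14 ± 0.03, adjusted p = 0.00197) rose, Dner at signals of at most 63.4. The Dlk1 call was lost without replicate 1 (adjusted p = 0.0579).

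None of the 3 tested ubiquitin ligases that act on the ligands passed. Of 5 genes for sugar modification of the receptors, Mfng, a fringe glycosyltransferase, fell (-0.13 ± 0.04, SE; limma, adjusted p = 0.0237), and the other 4, Lfng among them (0.04 ± 0.06, adjusted p = 0.672), did not pass. Of 8 protease genes that mature or cleave the receptors, Aph1b, a gamma-secretase subunit, rose (0.08 ± 0.02, adjusted p = 0.00935), and Psen2, a catalytic subunit, fell (-0.10 ± 0.03, adjusted p = 0.0413). All 6 nuclear partners tested missed the threshold, with Rbpj, the DNA-binding protein of the pathway, at 0.03 ± 0.02 (adjusted p = 0.374). The calls of Mfng, Aph1b and Psen2 were less stable, being kept in 31 of 35, 34 of 36 and 18 of 35 alternatives. Psen2 and Mfng were lost without any one replicate number (adjusted p up to 0.182 and 0.143), and Aph1b without replicate 2 (0.103) or 3 (0.0745).

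Of 9 inhibitors and turnover factors, only Dtx1, a Deltex ubiquitin ligase, was called, and it rose (0.34 ± 0.03 log2 units per part, SE; limma, adjusted p = 8.5e-09). Among 8 target genes, Heyl (0.39 ± 0.05, adjusted p = 2.28e-06) and Hey1 (0.32 ± 0.07, adjusted p = 0.00198) rose, and Hes7, the clock gene encoding a repressor, fell (-0.58 ± 0.08, adjusted p = 5.4e-06). The other 5 did not pass, and Hey1 lost its call without replicate 2 (adjusted p = 0.104).

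**Figure D4:**
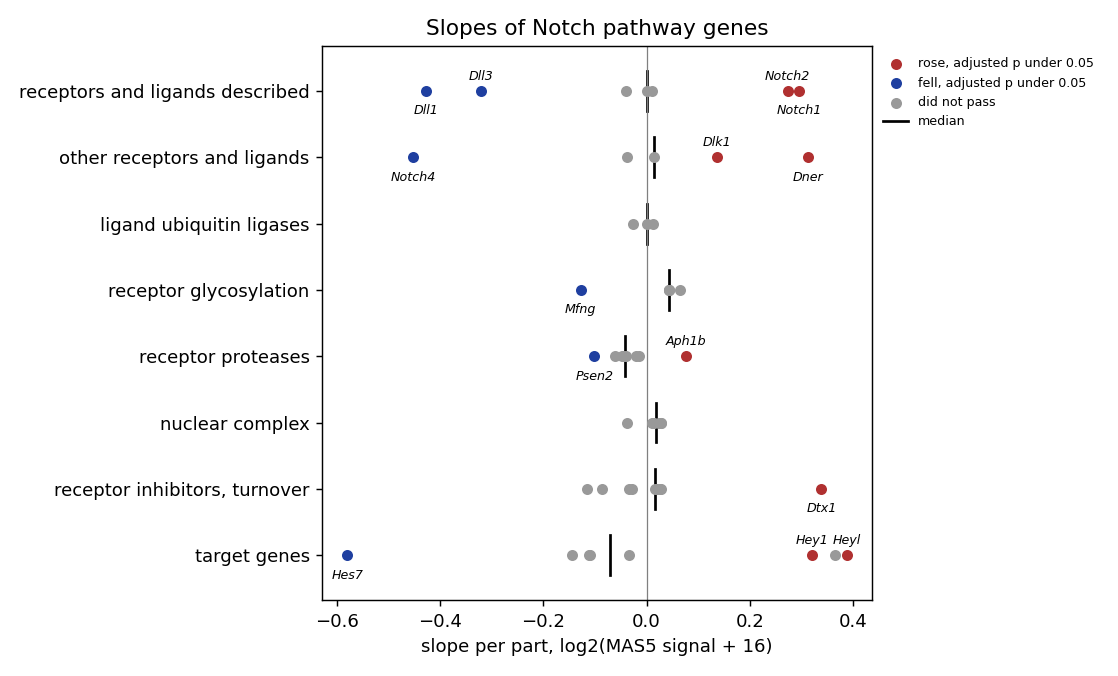
Slope per part in log2(MAS5 signal + 16) for each tested gene of the 7 members (top row) and of the 7 pathway lists; red dots rose and blue dots fell with an adjusted p under 0.05, grey dots did not pass, and the black bar is the median of the row. Most genes of the 7 lists lie near 0, and the called genes are named.

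The lists of other tissues give the background against which the member values stand. The summed signal of 11 neural tube markers was 828 to 1299 in part 1, 584 to 1026 in part 2, 529 to 604 in part 3 and 485 to 562 in part 4. It was 358 to 635 in part 5, 227 to 374 in part 6 and 179 to 292 in part 7, so that the sums of parts 1 and 7 did not overlap. Of 8 tested neural markers Fabp7 fell and Olig2 rose. Fabp7, an early neural gene, carried most of the sum with a mean signal of 434 and reached the filter value in 21 arrays. Of the other 10 markers, Irx3 reached it in 18 arrays, Sox21 in 13, Olig2 and Sox3 in 7 each, Sox2 in 6, Pax6 in 4, Nkx6-1 in 3, Sox1 in 1, and Nkx6-2 and Neurog2 in 0. Over the 21 arrays the log2 neural sum correlated at r = 0.745 with Dll3, 0.679 with Dll1, -0.819 with Notch2 and -0.632 with Notch1. The somite sum correlated at r = 0.873 with Notch2, 0.786 with Notch1, -0.546 with Dll3 and -0.527 with Dll1. The presomitic sum adds 5 markers that fell and 2 that rose, so it mixes opposite trends. Its r was 0.654 with Dll3, 0.528 with Dll1, -0.375 with Notch2 and -0.173 with Notch1. All are descriptions, since sums and members that both change along the parts correlate. Dll1 is itself expressed in the neural tube, and the part of neural tissue in the values of these 4 members was not tested.

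The summed signal of 13 endothelial markers varied between 105 and 1577. Replicate 3 was highest and replicate 2 lowest of the 3 arrays in 6 of the 7 parts, all but part 6. Its ranges were 144 to 884 in part 1, 131 to 1577 in part 2, 822 to 1116 in part 3, 321 to 836 in part 4, 304 to 459 in part 5, 105 to 390 in part 6 and 151 to 473 in part 7. Of its 12 tested genes Egfl7 and Etv2 fell, as did the vascular receptor gene Notch4. The endothelial sum correlated at r = 0.712 with Jag2 and -0.467 with Jag1, and its part in their values and in that of Notch4 was not tested. The sum of 9 gut endoderm markers, between 56.6 and 467, correlated at r = 0.635 with Jag2, -0.627 with Notch2 and -0.598 with Notch1, and of its genes only Krt8 fell. Of 8 blood markers on the array 5 fell, and their sum lay between 6596 and 19676. Of 6 surface ectoderm markers 3 were tested and only Grhl3 fell, with sums between 21.3 and 85.5 that correlated at r = -0.575 with Notch2 and 0.533 with Dll3. The part of these tissues in the member values was not tested.

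**Figure D5:**
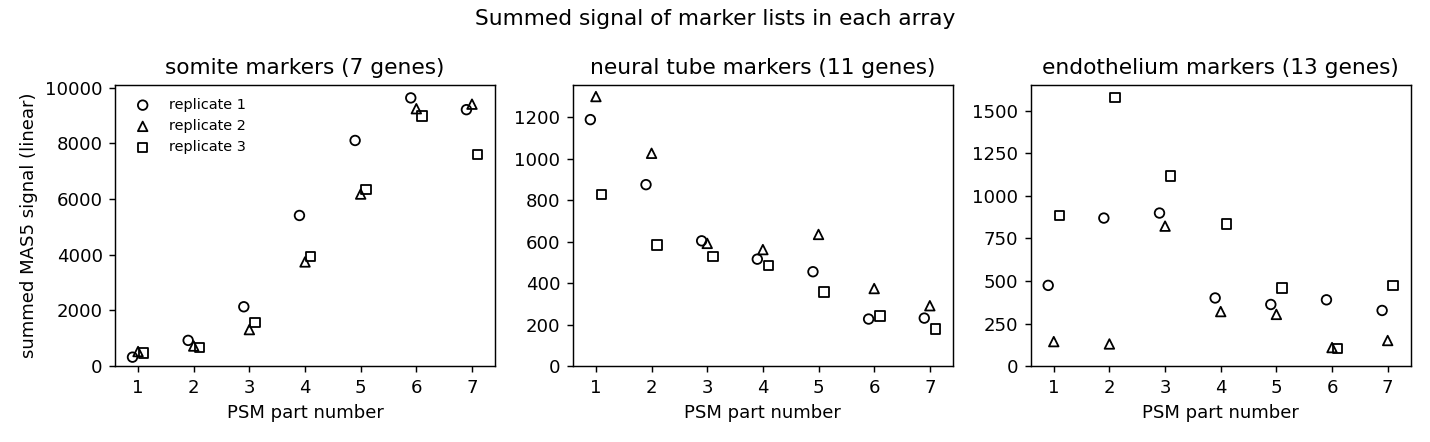
Summed linear MAS5 signal of 7 somite, 11 neural tube and 13 endothelial markers on each array against PSM part number; symbols are the replicate numbers. The somite sum grows from at most 527 in part 1 to at least 7596 in part 7, the neural tube sum shrinks along the parts, and the endothelial sum differs between arrays of one part by up to the range of 131 to 1577 in part 2.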

How the data were processed

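Total RNA of dissected PSM parts was labelled with a double amplification and hybridised to Affymetrix arrays, per the labels' protocols. The deposited values are linear signal intensities, 1 per probe set. The authors used MAS5, per the submitters' processing notes, with settings not given in the sources. MAS5 scales arrays to a like mean, which hides a change shared by most genes, and is noisy at low signal. Arrays have no read depth, and their number limits the precision.

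Of 45101 probe sets, 34945 had 1 gene symbol in the platform annotation (64 were controls, 9160 had none, 932 had several), and 34741 of these symbols were found in RefSeq's GRCm38.p6 table. Signals were tested as log2(signal + 16), a scale that understates the fold changes of dim genes. Genes entered the tests when 3 or more arrays reached 13.3, the median of the table. In R 4.3.3, limma 3.58.1 with its variance trend and without covariates gave the slope on the part number (19 residual degrees of freedom) and, from a fit of part means (14), an F test, part 7 against part 1, neighbouring parts and the middle parts. P-values were adjusted by Benjamini-Hochberg over all genes, or over all probe sets where each was tested alone. Pair slopes used two-sided tests with 100000 permutations. The fits were tried on simulated data with independent arrays, which does not cover arrays that share an embryo or a replicate number.

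The members, tests and lists were chosen with earlier results of these data known. Named genes are the members, up to 3 called genes per pathway list with Lfng and Rbpj, the 3 genes most alike each member, and Tbx6 and Meox1. Tissue markers named for small counts were chosen after their values were seen. No array pair held identical values. Same-numbered arrays deviated together, with r above 0.1 in every pair, at 5 of the 6 steps, all but part 1 to 2. Over all parts r was above 0.1 in 55 of 63 pairs and lowest at 0.0341. The main fits leave this likeness out, so blocked values stand beside the steps they change.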

Additional observations from a re-analysis of the deposited data

How the results depend on the processing

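The calls of Notch2, Dll1 and Dll3 for the slope, the F test and part 7 against part 1 were kept under every alternative tried. The members called by the slope and by part 7 against part 1 numbered 4, and 3 to 4 with arrays left out. At single steps, where no member was called, array weights and the replicate block, fixed or random, each called 1 member from part 4 to 5 (Notch2) and 3 from part 5 to 6 (Dll1, Dll3 and Jag1), and the fit of only the 2 parts compared called 1 from part 5 to 6 (Dll3). With arrays or replicate numbers left out, the members called ranged from 3 to 5 for the F test, 0 to 1 from part 1 to 2 and from part 4 to 5, 0 to 2 from part 5 to 6 and from part 6 to 7, and 1 to 4 for the middle parts. The cause of these moves was not tested. Jag1 alone had a slope near 0 that changed sign with a pseudocount of 1 (-0.000385), and it ranged from -0.0364 to 0.0465 with arrays left out. Likewise the slope of Notch3 ranged from -0.0123 to 0.0248, that of Notch1 from 0.21 to 0.367, part 7 against part 1 from 0.627 to 2.10 for Notch1 and from -0.151 to 0.0307 for Jag2, the slope of Notch1 minus Notch2 from -0.0678 to 0.0737 and that of Notch1 minus Notch3 from 0.185 to 0.374. Pathway genes called by the slope, counted after seeing the data, were 10, 6 with the filter at the 75th percentile, which also removed Jag2 and tested fewer genes, and 6 to 14 with arrays left out (14 without part 7 replicate 1, 6 without replicate 2).

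Replicate numbers were not used as a block in the main fits. Deviations of same-numbered arrays correlated between 0.0341 and 0.677 (median 0.30), above 0.1 in 55 of 63 pairs, and 18 of 21 arrays correlated best with their own number. The replicate block raised the genes called from 2330 to 3045 for the slope, from 1627 to 3026 for the F test, from 1625 to 2850 for part 7 against part 1 and from 352 to 715 for the middle parts, and from 97 to 486, 1 to 18, 6 to 34, 39 to 105 and 59 to 142 at the first 5 steps. Over all alternatives the genes called ranged from 1375 to 3261 for the slope, 608 to 3026 for the F test, 701 to 2850 for part 7 against part 1, 112 to 715 for the middle parts, and 14 to 486, 0 to 18, 0 to 58, 5 to 105, 2 to 142 and 0 to 62 at the 6 steps, the low ends mostly with a replicate number left out.

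Low signals limit Jag2 and several second probe sets, which lie near the filter value. Some arrays share an embryo, and 3 arrays a part limit every single-step test. The end of the tissue that part 1 stands for is not labelled and was read only from markers.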
